A study of Mus musculus with 6 samples.

Results

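The genes described here encode 8 transcription factors that set up and maintain hepatocyte gene expression: Hnf4a, Foxa1, Foxa2, Foxa3, Cebpa, Cebpb, Gata4 and Gata6. They were chosen by name, and all 8 were found, each once, among the 55573 rows of the deposited table. RNA had been sequenced in bulk from Hepa1-6, a mouse line derived from a liver tumour and labelled as liver cancer cells, in 3 libraries of the genotype Matr3 knockout, made by CRISPR/Cas9, and 3 libraries of the genotype WT. Both groups were grown in the same serum-supplemented medium, and the labels name no other allele, agent or time. Whether the 3 libraries of each genotype stem from different cultures, and whether the knockout is 1 clone or several, is not in the labels; a p-value here therefore reflects library-to-library spread alone, which may be technical. Matr3 encodes matrin 3, an RNA-binding protein of the nuclear matrix.

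These factors work as a network on the enhancers and promoters of liver genes. FOXA proteins are forkhead pioneer factors that open closed chromatin, GATA4 and GATA6 are zinc finger factors that act beside them in the early endoderm and liver bud, HNF4A is an orphan nuclear receptor on which much of hepatocyte gene expression rests, and the C/EBP proteins are leucine zipper factors, of which C/EBPalpha goes with the quiescent differentiated hepatocyte and C/EBPbeta with the acute phase, regeneration and stress. In hepatocytes HNF4A and the FOXA factors bind the promoters of other liver regulators.

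In these libraries Cebpb was the most abundant of the 8 messages, Foxa2 came next, Gata6 and Cebpa were low, Foxa1 and Foxa3 were near the limit of testing, and Hnf4a and Gata4 were not detected beyond 1 read. Between knockout and wild type, 1 of the 6 members that passed the expression filter was called: Gata6, lower by 1.39-fold. None was called higher (Benjamini-Hochberg adjusted p under 0.05 by the quasi-likelihood test of edgeR). At an unadjusted p under 0.05, 0 of 6 were higher and 2 lower, Gata6 and Cebpa. Of all 14842 tested genes 15.2% were called in either direction and 7.48% were called lower in the knockout, so a count of 1 in 6 lies near the background. By DESeq2, which called 19.6% of all tested genes, and by limma voom, which called 15%, 1 member was lower and 0 higher. On log2(FPKM + 1), limma called 0 members and 12.5% of all tested genes. The authors' deposited table, which calls 9.98% of its 24998 genes with an adjusted p, calls 0 of the 6 members, with 2 at an unadjusted p under 0.05.

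**Figure D1:**
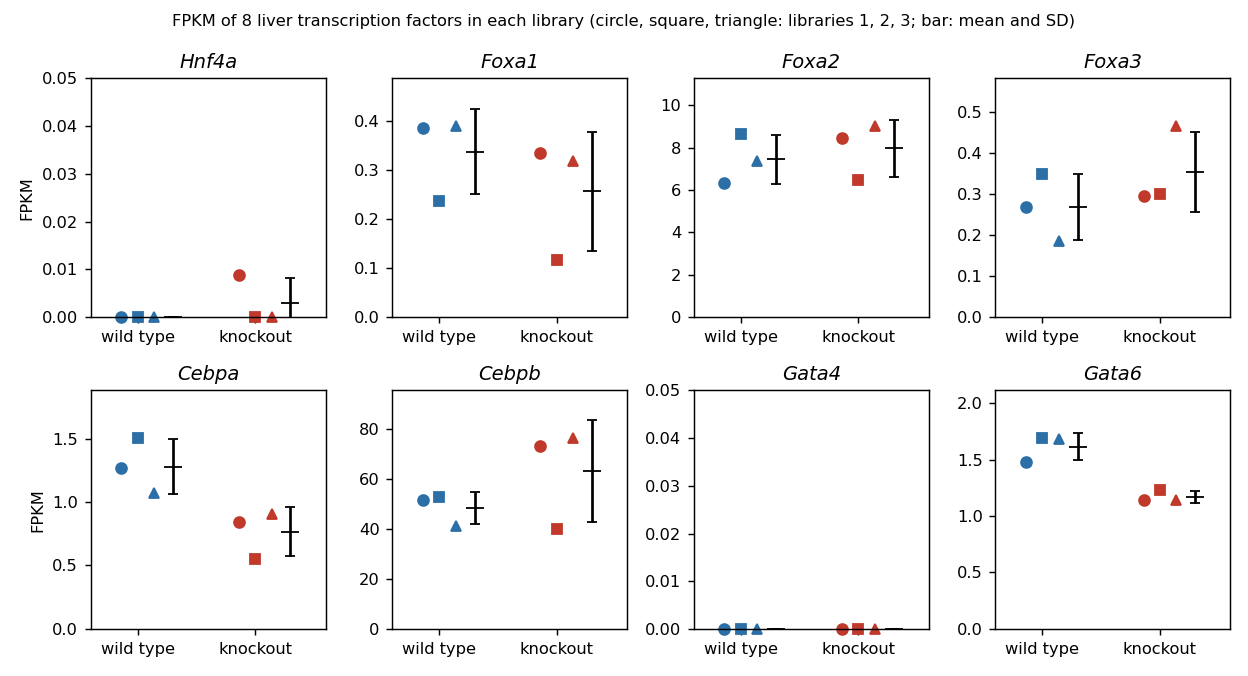
FPKM (reads scaled to gene length and library size) of the 8 genes in each library, with 1 panel and 1 linear axis per gene; circles, squares and triangles are libraries 1, 2 and 3, and the bar is the mean with the SD over 3 libraries. All 3 knockout libraries lie below all 3 wild-type libraries for Gata6 and Cebpa, while knockout library 2 lies apart from the other 2 knockout libraries for Cebpb and Foxa1.

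The 6 libraries held 20736570 to 30794032 counts. On the CPM scale (reads scaled to library size only) Matr3 itself stood at 129 ± 4.65 in the wild type and 79.1 ± 6.08 in the knockout (SD, n = 3 each), lower but not lost. Knockout library 2 stood apart from the other 2 in composition: the deviation of its genes from their means correlated with transcript GC content at -0.27, against 0.26 in knockout libraries 1 and 3 and -0.16 to -0.03 in the wild-type libraries (across 14666 genes, which are not independent replicates). The members are GC-rich, with a median of 56.2% over the 6 tested ones against 49.6% over all tested genes and 67.2% for Cebpb, so the fold change of each tested member is given with and without knockout library 2. The share of all tested genes called by edgeR was 15.2% with all 6 libraries and 28.1% without knockout library 2. It was 13.5% without wild-type library 1 and 5.28% to 6.07% without any 1 of the other libraries.

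The label of a liver cell was checked against defining hepatocyte and hepatoblast messages. Of 10 such markers in the table, 4 had 0 reads in all 6 libraries (Ttr, Serpina1a, Serpina1b and Fgb) and 6 had 10 reads or fewer in all. Among all 55573 rows, coding or not, 28508 had 0 reads and 36230 had 10 or fewer. Alb, the albumin gene, had 1 read. Afp, the fetal albumin relative, had a mean of 4.81 ± 0.247 CPM in wild-type and 2.79 ± 0.715 CPM in knockout libraries (SD, n = 3 each), and Apoa2 of 1.01 ± 0.340 and 1.23 ± 0.374 CPM. The summed level of the list was 3.64 to 5.38 CPM in the knockout and 5.39 to 6.77 CPM in the wild type. Most of the defining markers of hepatocytes are therefore at or near 0 in libraries of both groups.

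Markers of other cell types were read in the same way. Of 5 bile duct markers, Krt19 (log2 fold change 1.18) was higher and Spp1 (-0.75) lower in the knockout, Krt7 had 1 read, and the summed level was 947 to 995 CPM in the knockout and 764 to 874 CPM in the wild type. Of 6 stromal markers Col1a1 was higher (0.81) and Pdgfrb lower (-1.39), with summed levels of 528 to 640 and 585 to 686 CPM. Of 5 endothelial markers Cdh5 was lower (-2.27), with summed levels of 0.879 to 1.53 and 2.85 to 3.63 CPM. Of 5 leukocyte markers only 1, Cd68, was tested, and it was not called by edgeR, with an unadjusted p under 0.05. Adgre1 and Lyz2 had 0 reads and Ptprc 6, and the summed levels were 12.4 to 16.0 and 10.7 to 11.9 CPM. By edgeR 2 of 4 tested bile duct markers were called, 2 of 4 stromal, 1 of 2 endothelial and 0 of 1 leukocyte, against 15.2% of all tested genes. The part of these markers in the results on the 8 factors was not tested. In bulk RNA, fewer cells with a message and less message per cell cannot be told apart.

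Hnf4a and Gata4 come first, since the network is usually drawn around them. Hnf4a (ENSMUSG00000017950; chromosome 2, 163348728 to 163414830, plus strand) had 1 read in knockout library 1 and 0 in each of the other 5 libraries, over 82471994 counts in the knockout and 75250503 in the wild type. Gata4 (ENSMUSG00000021944; chromosome 14, 63436371 to 63509141, minus strand) had 0 reads in all 6. A count of 0 allows up to 3 reads over a group, that is 0.0364 CPM for the knockout group and 0.0399 CPM for the wild-type group, or 0.00932 and 0.0102 FPKM for Gata4; such limits cover counting error only. No fold change can be given for either gene. Hnf4g, the Hnf4a paralog, and Gata5, the third member of the cardiac and endodermal GATA group, were also at 0 in all 6 libraries, as was the antisense transcript Hnf4aos, which overlaps Hnf4a.

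Hnf4a has an upstream start, known as P2, and a downstream start, known as P1, which serves the adult liver; the windows of both are shown because the gene had 1 read in all, beside windows of the more abundant Foxa2 (the upstream of its 3 RefSeq starts), Cebpb and Cebpa. Reads were counted by gene, so the starts cannot be told apart. The windows run from 250 bases before to 50 bases after a RefSeq start on GRCm38.p6, are written 5′ to 3′ on the strand of the gene, and carry motif matches in capitals. The gene coordinates in this text are those of the deposited table, which do not match GRCm38, so positions of windows and genes cannot be compared. RefSeq windows of 6 of the 8 members were used, 9 windows in all, and none of Gata4 or Gata6 was searched.
Hnf4a upstream start, chr2:163506607-163506906, plus strand: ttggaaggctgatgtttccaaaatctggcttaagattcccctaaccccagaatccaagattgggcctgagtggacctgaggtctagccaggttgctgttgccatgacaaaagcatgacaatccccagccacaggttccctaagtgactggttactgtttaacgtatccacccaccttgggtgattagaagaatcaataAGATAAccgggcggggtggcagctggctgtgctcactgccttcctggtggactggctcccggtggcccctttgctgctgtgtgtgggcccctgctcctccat
Hnf4a downstream start, chr2:163546905-163547204, plus strand: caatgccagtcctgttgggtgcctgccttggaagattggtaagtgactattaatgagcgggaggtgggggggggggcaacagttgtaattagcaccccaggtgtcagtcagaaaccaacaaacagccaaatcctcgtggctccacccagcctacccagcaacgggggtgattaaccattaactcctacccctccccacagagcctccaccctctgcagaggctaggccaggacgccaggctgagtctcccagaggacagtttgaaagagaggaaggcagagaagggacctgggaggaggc
Foxa2, chr2:148046920-148047219, minus strand: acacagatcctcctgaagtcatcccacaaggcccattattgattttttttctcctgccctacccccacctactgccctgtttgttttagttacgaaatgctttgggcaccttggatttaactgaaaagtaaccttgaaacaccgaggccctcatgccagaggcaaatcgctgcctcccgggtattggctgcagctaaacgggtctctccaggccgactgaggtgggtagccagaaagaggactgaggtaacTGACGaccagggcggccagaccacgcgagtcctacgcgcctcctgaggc
Cebpb, chr2:167688665-167688964, plus strand: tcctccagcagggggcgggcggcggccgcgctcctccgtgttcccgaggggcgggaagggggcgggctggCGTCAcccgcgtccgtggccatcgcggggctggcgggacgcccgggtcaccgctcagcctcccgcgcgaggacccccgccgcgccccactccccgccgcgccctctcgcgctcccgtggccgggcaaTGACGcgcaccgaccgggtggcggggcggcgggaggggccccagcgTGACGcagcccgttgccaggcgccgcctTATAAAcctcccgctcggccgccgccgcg
Cebpa, chr7:35119043-35119342, plus strand: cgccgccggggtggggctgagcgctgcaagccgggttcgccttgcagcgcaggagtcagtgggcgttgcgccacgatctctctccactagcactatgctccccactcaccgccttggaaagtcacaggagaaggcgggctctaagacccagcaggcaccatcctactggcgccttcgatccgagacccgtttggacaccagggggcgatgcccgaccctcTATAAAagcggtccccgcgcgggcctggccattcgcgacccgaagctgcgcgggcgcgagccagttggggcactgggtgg

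These letters were searched on both strands for 6 short motifs. The upstream Hnf4a window held 1 GATA match (AGATAA, 52 bases before the start; 11.2% of all 32851 windows of this length), and the downstream window held no match to any of the 6. Cebpb had 3 matches to the core of the cyclic AMP response element (TGACG; 20.8% of windows) and a TATA match (TATAAA; 13.6%) 21 bases after the annotated start, and Cebpa a TATA match 30 bases before it. The Foxa2 window printed here held 1 TGACG, 1 base after the start, and the most downstream of its 3 windows held 1 match each to the GATA, HNF4 and TATA motifs. Among the 9 windows searched, the FOXA motif TGTTTAC (3.65% of windows) was found only in that of Foxa1, where it overlaps an HNF4 match (CAAAGT, 14.4%). The C/EBP motif TTGCNNAA (10.8%) was found in none of the 9. A match is a description of the letters and not a measured binding site.

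The FOXA family was Foxa2 almost alone. Foxa2 made up 93.0 ± 0.977% of the summed FPKM of the 3 genes in the knockout and 92.4 ± 1.56% in the wild type (SD, n = 3 each). Foxa2 (ENSMUSG00000037025; chromosome 2, 147884797 to 147888889, minus strand) stood at 8.46, 6.45 and 9.01 FPKM in knockout libraries 1 to 3 and at 6.33, 8.65 and 7.37 FPKM in the wild-type libraries. The groups overlap, with the lowest knockout value in library 2 and the lowest wild-type value in library 1. On the CPM scale the log2 fold change was 0.09 (SE 0.164, 95% interval -0.29 to 0.46, edgeR adjusted p = 0.753), an interval that leaves out a change of 1.5-fold either way. Without knockout library 2 it was 0.23 (adjusted p = 0.237).

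Foxa1 and Foxa3 were each under 0.5 FPKM in every library. Foxa1 (ENSMUSG00000035451; chromosome 12, 57587414 to 57593702, minus strand), which opens chromatin in liver, prostate and breast, had 26, 12 and 30 reads in the knockout libraries and 28, 21 and 34 in the wild type. The lowest count came from knockout library 2, the deepest library of the 6, and the groups overlap. The log2 fold change of Foxa1 was -0.41 (SE 0.462, 95% interval -1.47 to 0.64, edgeR adjusted p = 0.581), and -0.05 without knockout library 2. Foxa3 (ENSMUSG00000040891; chromosome 7, 18747209 to 18757463, minus strand), the FOXA gene that is usually most active in adult liver, had 14, 19 and 27 reads against 12, 19 and 10. Its groups overlap too, and its log2 fold change was 0.39 (SE 0.407, 95% interval -0.55 to 1.32, edgeR adjusted p = 0.557), and 0.50 without knockout library 2 (0.478). The interval of Foxa1 includes a 2-fold fall and that of Foxa3 a 2-fold rise, so neither such a change nor its absence could be shown.

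**Figure D2:**
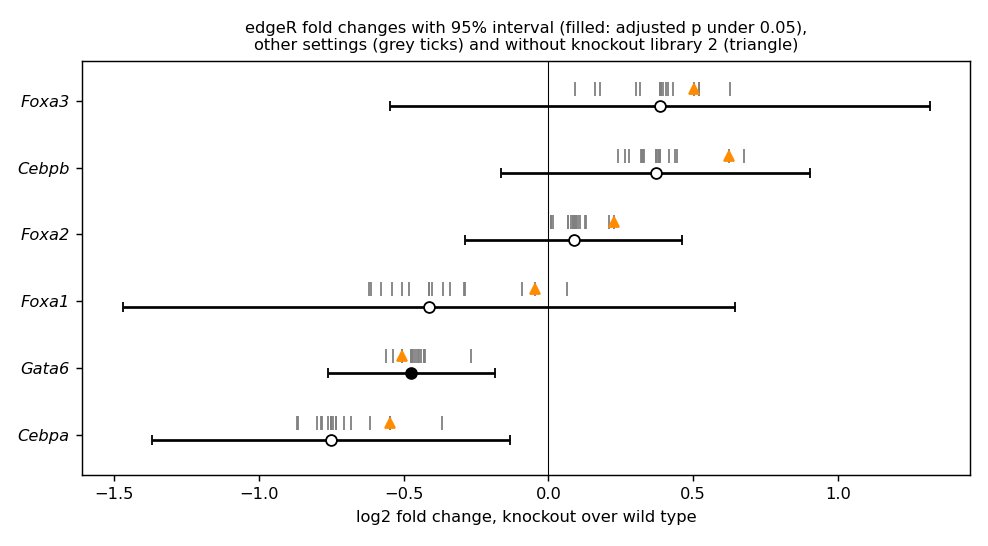
Log2 fold change, knockout over wild type, of the 6 tested factors by edgeR (circle, filled where the adjusted p is under 0.05) with its 95% interval; grey ticks are the estimates under the other settings and the triangle the fit without knockout library 2. The interval is narrowest for Gata6, from -0.76 to -0.19, and Cebpb moves from 0.37 to 0.62 without knockout library 2.

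In the C/EBP family the estimates for Cebpb and Cebpa had opposite signs, neither passed the test, and their ratio separated the groups. In each library the FPKM of Cebpb was divided by that of Cebpa, which gave 86.8, 72.9 and 84.2 in the knockout and 40.8, 35.1 and 38.6 in the wild type. Every knockout library was above every wild-type library, including library 2, and the means were 81.3 ± 7.39 and 38.2 ± 2.86 (SD, n = 3 each). The ratio was chosen with the values of its 2 genes known, so it is given as a description with no test.

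Cebpb (ENSMUSG00000056501; chromosome 2, 167530835 to 167532338, plus strand), a gene without introns whose message is translated into activating and inhibitory proteins, was the highest of the 8. It stood at 73.4, 40.0 and 76.4 FPKM in the knockout libraries and 51.7, 52.8 and 41.2 FPKM in the wild type. Knockout libraries 1 and 3 were above all wild-type libraries and knockout library 2 was below them, so the groups overlap. The log2 fold change of Cebpb was 0.37 (SE 0.233, 95% interval -0.16 to 0.90) and did not pass (edgeR adjusted p = 0.320). Without knockout library 2 it was 0.62 and passed (edgeR adjusted p = 0.00563), in a fit that called 28.1% of all tested genes, against 15.2% with all libraries. The remaining knockout libraries of that fit carry the GC correlation of 0.26. With the GC trend of each library removed and all 6 kept, Cebpb was at 0.38 and passed as well (edgeR adjusted p = 0.00997), as did 20.1% of all tested genes. Peds1, on the opposite strand, overlaps 908 of the 1504 bases of Cebpb, strandedness is not stated in the labels, and reads of the pair cannot be told apart; Peds1 differed by 0.19 (edgeR adjusted p = 0.409).

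Cebpa (ENSMUSG00000034957; chromosome 7, 34818718 to 34821353, plus strand), which restrains proliferation and drives genes of gluconeogenesis and the urea cycle in hepatocytes, was about 1 FPKM. The values were 0.845, 0.548 and 0.908 FPKM in the knockout libraries and 1.27, 1.504 and 1.07 FPKM in the wild type, from 45 to 106 reads a library. All knockout libraries lie below all wild-type libraries. Non-overlapping groups were seen for 2 of the 6 tested members, Cebpa and Gata6, and for 36.6% of all tested genes. The log2 fold change of Cebpa was -0.75 (SE 0.270, 95% interval -1.37 to -0.13, unadjusted p = 0.0229) and missed the threshold after adjustment (edgeR adjusted p = 0.0979). It was -0.55 without knockout library 2 (edgeR adjusted p = 0.135) and -0.78 with the GC trend of each library removed. There it passed (edgeR adjusted p = 0.0322), as did 20.1% of all tested genes. The antisense transcript Gm45091 overlaps 313 bases of Cebpa and had 14, 3 and 8 reads in the knockout and 2, 3 and 1 in the wild type, too few to test.

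Among the other C/EBP genes, Cebpg, which encodes a short dimer partner without a strong activation domain of its own, rose from 19.0 to 26.5 FPKM (log2 fold change 0.47 on the CPM scale, edgeR adjusted p = 0.00744), a call that just ended without wild-type library 3 (0.05002). Ddit3, which encodes CHOP, a C/EBP relative that binds C/EBPbeta under stress, rose by 1.01 (adjusted p = 0.00244). Cebpd stood at 1.40 ± 0.387 and 1.71 ± 0.151 FPKM in knockout and wild type (SD, n = 3 each) and did not pass (log2 fold change -0.31, adjusted p = 0.396), and without knockout library 2 it was at -0.09 (0.711). Cebpe had 0 reads. Cebpa made up 0.830 ± 0.0333% of the family's summed FPKM in the knockout and 1.81 ± 0.177% in the wild type, groups that do not overlap, while the share of Cebpb was 67.6 ± 8.28% and 68.7 ± 2.83%.

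**Figure D3:**
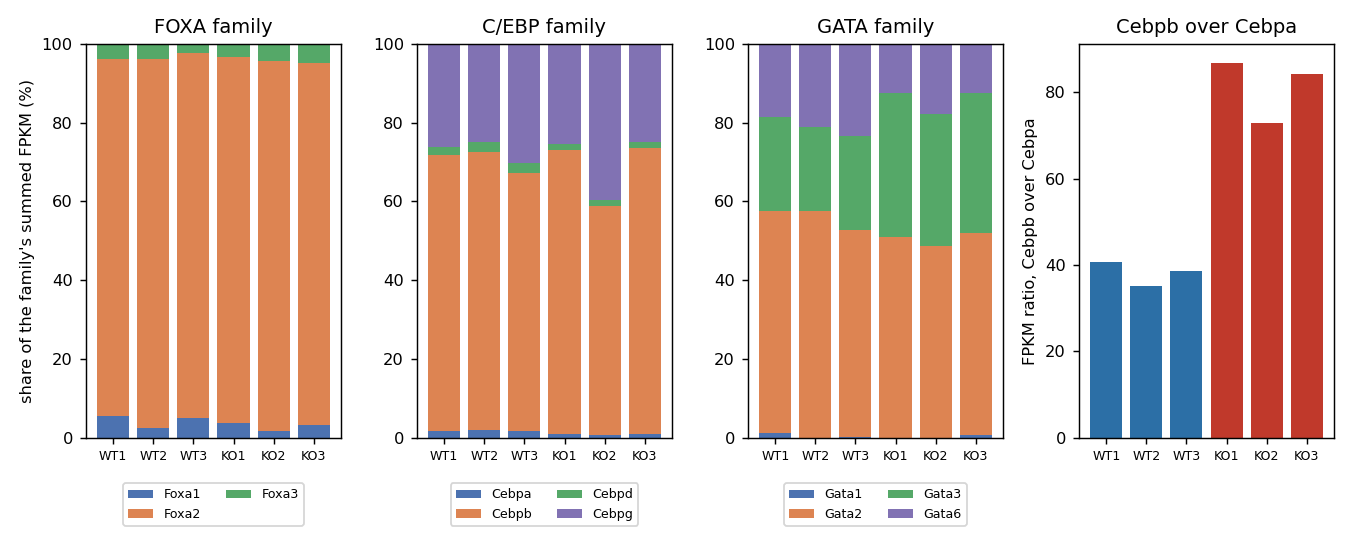
Share of each gene in the summed FPKM of the FOXA, C/EBP and GATA families in every library (stacked bars, in percent), and the FPKM ratio of Cebpb to Cebpa (right; blue wild type, red knockout). Foxa2 takes over 90% of the FOXA bar in all 6 libraries, Gata3 takes more and Gata6 less of the GATA bar in the knockout, and the ratio is 72.9 or more in the knockout libraries and 40.8 or less in the wild type.

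Gata6 was the only member called in the main edgeR fit. Cebpa, which missed the threshold, had the lower estimate (log2 fold change -0.75). Gata6 (ENSMUSG00000005836; chromosome 18, 11052064 to 11085635, plus strand), which in the mouse embryo is needed for the extraembryonic endoderm and, with Gata4, for the liver bud, had 173, 250 and 211 reads in the knockout libraries and 210, 294 and 287 in the wild type, which correspond to 7.45, 7.98 and 7.42 against 9.80, 11.0 and 10.9 CPM. The groups do not overlap, and knockout library 2 lies with the other 2. The means were 1.17 ± 0.0537 and 1.61 ± 0.120 FPKM (SD, n = 3 each), and the log2 fold change was -0.47 (SE 0.125, 95% interval -0.76 to -0.19, edgeR adjusted p = 0.0391). Leaving out any 1 of 4 libraries ended the call (edgeR adjusted p from 0.1404 to 0.176). These were numbers 1 and 3 of the knockout and numbers 2 and 3 of the wild type. In these 4 fits the log2 fold change of Gata6 was -0.45 to -0.43. They called 5.28% to 6.07% of all tested genes, against 15.2% with all 6 libraries. The Gata6 call held without knockout library 2 (log2 fold change -0.50, edgeR adjusted p = 0.0220) and with the GC trend removed (0.0290). With no filter on low counts it also ended (0.138). The opposite-strand transcript Gata6os overlaps 504 bases of Gata6 and had 0 to 4 reads a library.

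By FPKM, Gata2 was more abundant than Gata6 in both groups and Gata3 as abundant or more, while Gata1 had 10 reads in all. Gata2, best known from blood progenitors and endothelium, stood at 4.25 ± 0.740 FPKM in the knockout and 4.28 ± 0.451 FPKM in the wild type (log2 fold change -0.02, edgeR adjusted p = 0.938), and at 0.13 without knockout library 2 (0.432). Gata3, a factor of T cells, trophoblast and mammary epithelium, rose from 1.77 ± 0.113 to 2.98 ± 0.551 FPKM (SD, n = 3 each). Its log2 fold change was 0.74 (edgeR adjusted p = 0.0242), and 0.90 without knockout library 2. Leaving out any of the same 4 libraries as for Gata6 ended this call (edgeR adjusted p from 0.0856 to 0.0938), in fits that called 5.28% to 6.07% of all tested genes. The FPKM ratio of Gata3 to Gata6 was 2.92, 1.90 and 2.85 in the knockout and 1.29, 1.01 and 1.01 in the wild type. This ratio sets a gene called higher over one called lower, so it is a description with no test. The GATA cofactor genes Zfpm1 (-0.27, adjusted p = 0.277) and Zfpm2 (-0.59, 0.124) did not pass; without knockout library 2 they were at -0.10 and -0.61.

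By length-scaled level the order in the wild type was Cebpb at 48.6 ± 6.37, Foxa2 at 7.45 ± 1.16, Gata6 at 1.61 ± 0.120, Cebpa at 1.28 ± 0.218, Foxa1 at 0.337 ± 0.0871 and Foxa3 at 0.268 ± 0.0811 FPKM (SD, n = 3), followed by Hnf4a and Gata4 at 0. In that group the ranges of Gata6 and Cebpa overlap, as do those of Foxa1 and Foxa3. In the knockout the order of the first 4 was the same, at 63.3 ± 20.2, 7.98 ± 1.35, 1.17 ± 0.0537 and 0.767 ± 0.192 FPKM, and there the ranges of Gata6 and Cebpa do not overlap. Foxa3, at 0.354 ± 0.0979 FPKM, and Foxa1, at 0.256 ± 0.122 FPKM, overlap again.

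The levels of the members were set beside the GC trend of each library. On the log2 CPM scale centred on the mean of the 6 libraries, Cebpb was at 0.44 and 0.49 in knockout libraries 1 and 3, at -0.45 in knockout library 2 and at -0.40 in wild-type library 3, the 2 libraries whose GC correlation is lowest. Foxa1 was at -1.13 and Cebpa at -0.81 in knockout library 2, their lowest values, but neither ran with the trend elsewhere. Foxa1 was at 0.45 in wild-type library 3, above the 0.25 and 0.17 of knockout libraries 1 and 3, and Cebpa was at -0.20 and -0.11 in these 2, below all wild-type libraries. Gata6, by contrast, lay between -0.27 and -0.17 in all 3 knockout libraries. The part of GC composition in these differences was not tested beyond the fit that removes it.

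**Figure D4:**
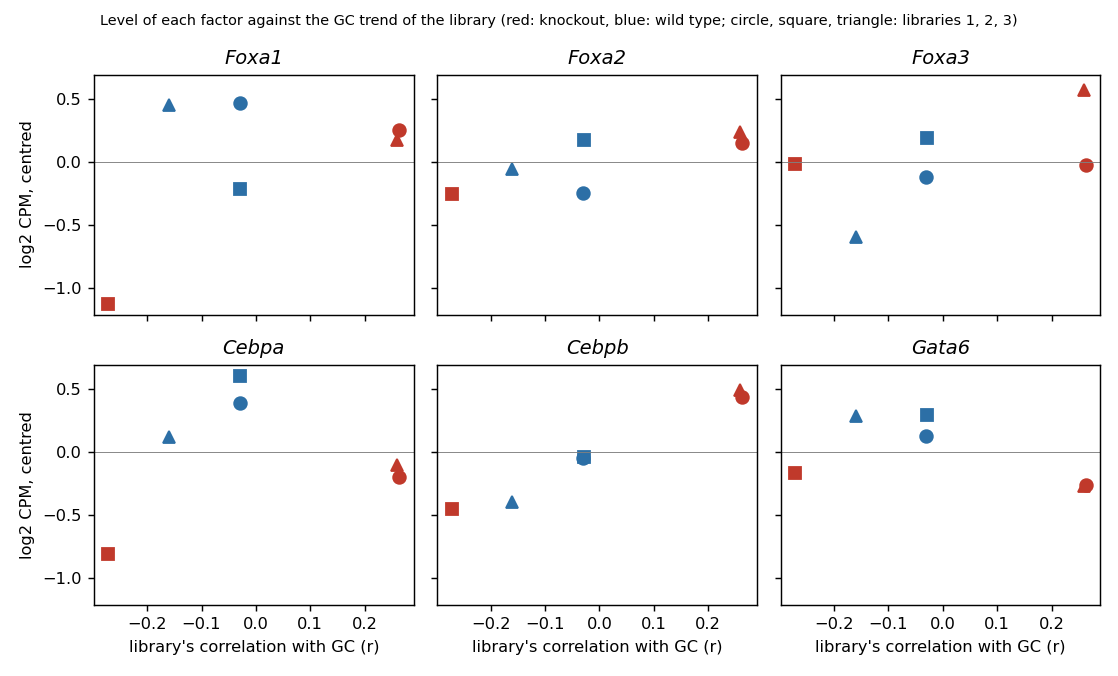
Log2 CPM of each tested factor, centred on its mean over the 6 libraries, against the correlation of the library's gene deviations with transcript GC content (red knockout, blue wild type; circle, square, triangle: libraries 1, 2, 3). Cebpb runs from -0.45 in knockout library 2, at a GC correlation of -0.27, to 0.49 in knockout library 3, at 0.26, and Gata6 is lower in knockout library 2, at the low end, as well as in knockout libraries 1 and 3, at the high end, where no wild-type library lies.

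The wider network of liver regulators was read from a list of 30 other factors and nuclear receptors. Of these, 17 were tested, 1 rose, 1 fell and 15 did not pass, beside 15.2% called over all tested genes. The median log2 fold change was -0.01 against -0.02 over all tested genes. Xbp1, a factor of the unfolded protein response and secretion, had 172 ± 13.7 CPM in knockout against 136 ± 5.40 CPM in wild-type libraries (SD, n = 3 each) and rose (log2 fold change 0.34, edgeR adjusted p = 0.0432). This call ended when any library other than knockout library 2 was left out (edgeR adjusted p from 0.0698 to 0.131), in fits that called 5.28% to 13.5% of all tested genes. It also ended with the GC trend removed (0.0937) and with no filter on low counts (0.0670). Rora, a nuclear receptor of circadian and lipid control, fell from 26, 21 and 36 reads to 2, 5 and 7 (log2 fold change -2.71, edgeR adjusted p = 0.00916). It narrowly missed without wild-type library 3 (0.0504), in a fit that called 5.28% of all tested genes. Rora was not called by limma on log2(FPKM + 1) (-0.10, adjusted p = 0.188) or + 0.1 (-0.71, 0.0663). With a mean of at least 1 CPM required it was not tested. The other most abundant genes of the list were the sterol regulator Srebf1 (305 and 255 CPM in knockout and wild type), the glucocorticoid receptor Nr3c1 (124 and 105), Atf5 (100.1 and 61.1) and the retinoid receptor Rxra (60.3 and 53.5), and none of these 4 passed by edgeR (adjusted p from 0.122 to 0.324). Atf5 passed by DESeq2 (adjusted p = 0.0312) and by edgeR with no filter on low counts (3.1e-06). Atf5, Srebf1 and Rxra passed without knockout library 2 (edgeR adjusted p of 0.000266, 0.0207 and 0.0411), and Atf5 and Nr3c1 with the GC trend removed (0.0292 and 0.0242). These fits called 28.1% and 20.1% of all tested genes, against 15.2% in the main fit. Prox1, a homeobox factor of the early liver, had 1 read in all, and Onecut1 and Nr0b2 had 0. Hhex, an early liver bud factor, at 24.8 ± 1.24 CPM in the wild type and 22.5 ± 1.04 in the knockout, was detected and did not pass (edgeR adjusted p = 0.375). Onecut2, at 14.9 ± 3.35 and 14.0 ± 1.34 CPM, did not pass either (0.759). Nr1h4 was at 0.47 and did not pass (edgeR unadjusted p = 0.0269, adjusted p = 0.108). With no filter on low counts it was called higher (edgeR adjusted p = 0.0261), in a fit that called 10.6% of all tested genes.

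Of 18 paralogs, dimer partners and cofactors of the factors, 13 were tested, 3 rose (Ddit3, Cebpg and Gata3, above) and 0 fell by edgeR, where 2 were lower at an unadjusted p under 0.05; 0 were also called lower by DESeq2 and by each limma fit. Of all 14842 tested genes 1142 were called higher, and 15.2% were called in either direction. The median log2 fold change was 0.07, against -0.02 over all tested genes. Trib1, whose product directs the degradation of C/EBPalpha, was at -0.28 (edgeR adjusted p = 0.0748), and the coactivator gene Ncoa1 at 0.62 (0.0626; called with no filter on low counts, 0.0353). The corepressor gene Ncor1, at 351 and 334 CPM in knockout and wild type, did not pass (0.584).

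Textbook targets of the factors were largely silent. The 4 lists together hold 48 genes, of which 47 were in the table, 21 had 0 reads in all libraries and 31 had 10 reads or fewer. Among all 55573 rows, coding or not, 28508 had 0 reads and 36230 had 10 or fewer. Of the targets 10 were tested, 1 rose, 1 fell and 8 did not pass, with a median of -0.10. Among 20 HNF4A targets that were measured, 12 had 0 reads, including Apoc3, Cyp7a1 and Fabp1, and 2 were tested, Apoa2 and Mttp, with 0 called by edgeR, by any other tool run or at an unadjusted p under 0.05. Of 12 FOXA targets only Afp was tested. Afp had 62, 67 and 101 reads in the knockout libraries and 103, 122 and 133 in the wild type, groups that do not overlap, with a log2 fold change of -0.79 just outside the threshold by edgeR (adjusted p = 0.0505) and inside it by DESeq2 and by each of the 3 limma fits.

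Of 15 C/EBP targets 2 were tested. C3, the central complement component, rose to 9.05 ± 0.891 CPM in the knockout against 5.00 ± 0.895 (SD, n = 3 each; log2 fold change 0.85, edgeR adjusted p = 0.0161), a call that ended without knockout library 1 (0.0621) or wild-type library 2 (0.0667), and Lcn2 did not pass (-0.13, 0.772). The acute phase genes Saa1, Saa2, Orm1 and Hamp had 0 reads. Saa3, another acute phase gene of the list, had 8, 8 and 28 reads in the knockout and 4, 1 and 2 in the wild type, groups that do not overlap; it fell short of the filter, and with no filter on low counts it was called higher (log2 fold change 2.46, edgeR adjusted p = 0.0388). Of 9 GATA targets 5 were tested and 1 fell: Dab2, an endocytic adaptor of the extraembryonic endoderm, was at 25.7 ± 2.41 CPM in knockout and 37.5 ± 5.45 CPM in wild-type libraries (log2 fold change -0.55, edgeR adjusted p = 0.0286). Its call too ended without any 1 of the libraries named for Gata6 (edgeR adjusted p from 0.111 to 0.136), in fits that called 5.28% to 6.07% of all tested genes. Lamb1 (-0.19) and Hhex (-0.14) did not pass. Over the 4 lists 2 of 10 tested genes were called, beside 15.2% over all genes. Single lists, with 1 to 5 tested genes, are too small for such a comparison. Binding of the factors to these genes was not measured.

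**Figure D5:**
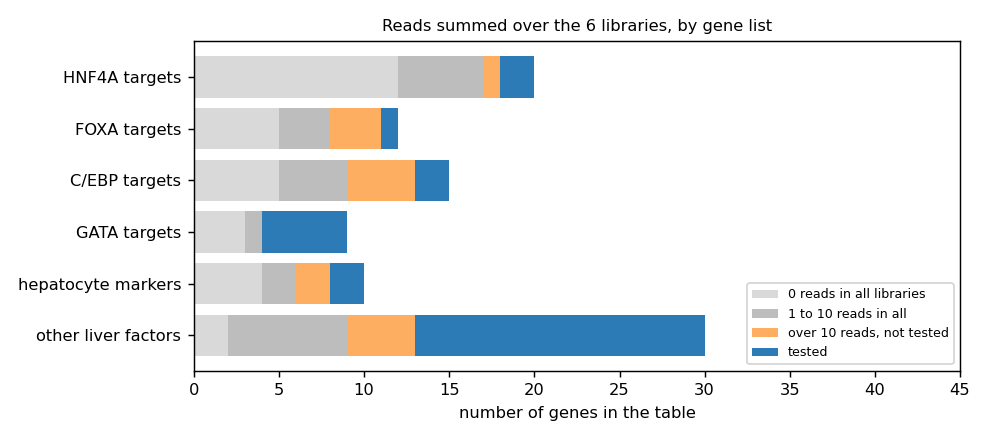
Number of genes in the table (horizontal axis) of each list by the reads summed over the 6 libraries: 0 reads, 1 to 10 reads, over 10 reads but not tested, and tested. Of the 20 HNF4A targets 12 had 0 reads and 2 were tested, while 17 of the 30 other liver factors were tested.

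Genes whose values over the 6 libraries followed a member most closely were sought among 9914 tested protein-coding genes whose mean was 5 CPM or more, by the root mean square difference of centred log2 CPM. For Gata6 they were Naf1 (0.0199) and Rbm27 (0.0219), for Foxa2 Tshz2 (0.0360) and Plk1 (0.0372), for Cebpb Zbtb7b (0.0434) and Prkag1 (0.0465), and for Cebpa Gdf11 (0.0840) and Ak1 (0.107). The nearest genes lay farther from Foxa3 (Uqcrb at 0.158 and Mrpl43 at 0.167) and Foxa1 (Pheta1 at 0.206 and Bok at 0.216), the members with the fewest reads among those tested. With 6 libraries in 2 groups such closeness is a description only.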

How the data were processed

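RNA-seq was analysed in 3 knockout and 3 wild-type libraries, grouped by sample title. Raw counts per gene were used as deposited. The FPKM values were deposited by the authors and are per gene length and library. The authors' deposited log2 fold changes, p-values and mean signal per group belong to their own comparison. Neither its tool, nor the aligner, nor strandedness was given in the sources used here. GRCm38 and mm10 stand in the submitters' processing notes, but of 52081 shared gene identifiers 2.8% have the same coordinates in GENCODE M21 of GRCm38. Of the deposited rows, 6 lie on scaffolds of GRCm39. The gene coordinates given here are as deposited and are not those of GRCm38, whereas the promoter windows are on GRCm38.p6.

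The count test was that of edgeR 4.0.16 under R 4.3.3, with filterByExpr, TMM scaling, the quasi-likelihood F test with no covariate, and Benjamini-Hochberg adjustment over 14842 genes, called under 0.05. SE follow from the F statistic and intervals from its degrees of freedom. CPM use TMM-adjusted library sizes. A count of 0 was given a floor of 3 counts over a group. Alternatives used RLE factors, library totals, other filters, protein-coding genes, a replicate block, DESeq2 1.42.0, limma 3.58.1 (voom, and log2(FPKM + 1) or + 0.1), a threshold of 0.01 and each library left out; removal of the GC trend (loess on the GC content of the longest GENCODE M21 transcript, known for 98.8% of tested genes) was added after seeing the data. On simulated counts for this comparison, over 14591 genes, the edgeR fit recovered 40.3% of changes of 1.5-fold, 86.2% of 2-fold and 97.1% of 4-fold, with 7.45% of calls false. Only 67, 65 and 68 genes were changed at these folds, a far smaller share than the 15.2% called in the data. The rates can differ with that share. Changed genes were drawn only from those with an average log2 CPM above 1, and no GC trend was simulated. Foxa1 (mean 0.853 and 1.13 CPM in knockout and wild type) and Foxa3 (0.720 and 0.551 CPM) lie below that range, so these rates do not cover them.

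The members and lists were chosen with earlier results of these data known. Named genes were all members, up to 5 called genes of each list by smallest p, the 5 most abundant other liver factors and the 2 genes most like each tested member; any further gene was picked with its values in view. A target named Tf was not analysed here, and some members of the lists are counted but not reported by name.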

Additional observations from a re-analysis of the deposited data

How the results depend on the processing

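The replicate numbers did not pair the libraries: the deviations of same-numbered libraries correlated at 0.17, -0.03 and -0.20. The share of all tested genes called differed by setting. It was 15.2% in the main fit, 10.8% with the replicate block, 12.5% and 12.6% with limma on log2(FPKM + 1) and + 0.1, and 4.86% at an adjusted p under 0.01. It was 17.3% with a mean of at least 1 CPM, 10.6% with no filter on low counts, and 20.1% with the GC trend removed. Over the fits that leave out libraries it ran from 5.28% to 51%. The count of members called was 1, and it was 0 with the replicate block, with limma on log2(FPKM + 1), with limma on log2(FPKM + 0.1) and at an adjusted p under 0.01 (2 lower and 0 higher at an unadjusted p under 0.05 in each), 3 with the GC trend removed, and 0 to 2 over the fits that leave out libraries. With no filter on low counts the 1 member called was Cebpb and not Gata6. Of the other liver factors, 2 were called, against 1 with genes required to average 1 CPM, 1 with the replicate block, 1 at an adjusted p under 0.01, 0 with either limma fit on FPKM (3 higher and 0 or 1 lower at an unadjusted p under 0.05), and 6 without knockout library 2, within 0 to 8 with libraries left out. Paralogs and partners numbered 3, and 1 to 7 with libraries left out. Textbook targets numbered 2, against 4 with no filter on low counts, 0 at an adjusted p under 0.01 (C3 higher, Afp and Dab2 lower at an unadjusted p under 0.05), and 0 to 5 with libraries left out. The highest counts of these 3 lists, 8, 7 and 5, came from the fit without knockout library 2 and wild-type library 1. That fit called 51% of all 14825 tested genes, and the fit without knockout library 2 alone called 28.1%. The cause of these differences was not tested.

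Over 19 alternatives Gata6 kept its direction in all (log2 fold change -0.56 to -0.27) and lost its call in 9, the replicate block among them (edgeR adjusted p = 0.0935). Cebpa stayed negative in all 19 (-0.87 to -0.37) and Cebpb positive (0.24 to 0.67). Cebpb also passed with no filter on low counts (edgeR adjusted p = 0.0285). It passed too when knockout library 2 and wild-type library 1 were both left out (edgeR adjusted p = 5.08e-05), in a fit that called 51% of all tested genes. Foxa1 ranged from -0.62 to 0.063 over the fits that leave out libraries, changing sign once, without knockout library 2 and wild-type library 1. Foxa1 and Foxa3 rest on 10 to 34 reads a library, and the part of depth in the width of their intervals was not tested.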
